A study of Mus musculus with 6 samples.

Results

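The genes described here are 47 genes of G2 phase, mitosis and cytokinesis. They were chosen by name from what they are known to do, when earlier results of these data were known. They were found on the array by gene symbol: 41 of the 47 had a probe (58 probes in all), out of 16593 named genes on the array. In KO mice, Med1 fl/fl on a C57BL6 background, the Mediator subunit gene Med1 was deleted by a Cre transgene under the keratin 14 promoter. Their Cre-negative littermates, also Med1 fl/fl on C57BL6, were the controls (CON), which the labels name WT. The deletion is limited to cells that use the keratin 14 promoter, and other cells that come off with the epidermis keep the gene. All mice were 10 wk old. Epidermis was lifted from dermis with trypsin, keratinocytes were released, and total RNA was hybridized to a 1-colour Illumina beadchip with 3 arrays per genotype. Each genotype drew on 2 mice, and which arrays share a mouse is not stated, so the p-values measure the spread between arrays, which may be partly technical. The paper's text gives another n for this series, and the labels were followed here. At this age, the study states, hair follicles were moving into anagen (growth) in KO and were in telogen (rest) in CON, so genotype and hair cycle phase cannot be told apart in these arrays.

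Genes of this group are transcribed late in the cell cycle and are low in resting cells. The kinase CDK1, activated by cyclins and by CDC25 phosphatases, starts mitosis. PLK1 and the Aurora kinases then build the spindle, kinesins move microtubules and chromosomes, and a checkpoint delays anaphase until every kinetochore is attached. CDC20 and the anaphase-promoting complex end that delay, after which a contractile ring divides the cell. In epidermis, dividing keratinocytes lie mainly in the basal layer and in the hair follicle.

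A tested gene is one with a probe detected (detection p below 0.01) on at least 3 of the 6 arrays. Levels are log2 intensities after background correction and quantile normalization, changes are KO minus CON in log2 units with the standard error (SE) of limma's fit (n = 3 arrays per genotype), and a gene rose or fell where limma's adjusted p was below 0.05. Med1 itself was lower in KO, at 5.85, 5.71 and 6.13, against 7.09, 6.81 and 6.69 in CON (change -0.96 ± 0.15, 1.95-fold lower, adjusted p = 0.00179). Its other 3 probes were detected on no array, and where its probes lie relative to the excised part was not examined.

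Of the 41 genes with a probe, 26 were tested, and each of these 26 was detected on all 6 arrays. In KO keratinocytes 20 of the 26 rose and 1 fell, while across all 7461 tested genes 14.1% rose and 14.7% fell. The median change of the 26 was 0.65, or 1.57-fold, against -0.0015 over all tested genes. All 3 KO arrays lay above all 3 CON arrays for 20 members, a pattern that 22.7% of all tested genes showed, and below them for 1 member, against 22.5% of all tested genes. The mean was higher in KO for 25 of the 26, and for 49.8% of all tested genes. The sizes were moderate on this scale: 14 members rose by at least 1.5-fold, against 6.93% of all tested genes, and 2, Kif2c and Cdca3, by at least 2-fold, against 2.47%. Because RNA came from bulk cells, a larger share of dividing cells and more of these transcripts per dividing cell cannot be told apart.

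**Figure D1:**
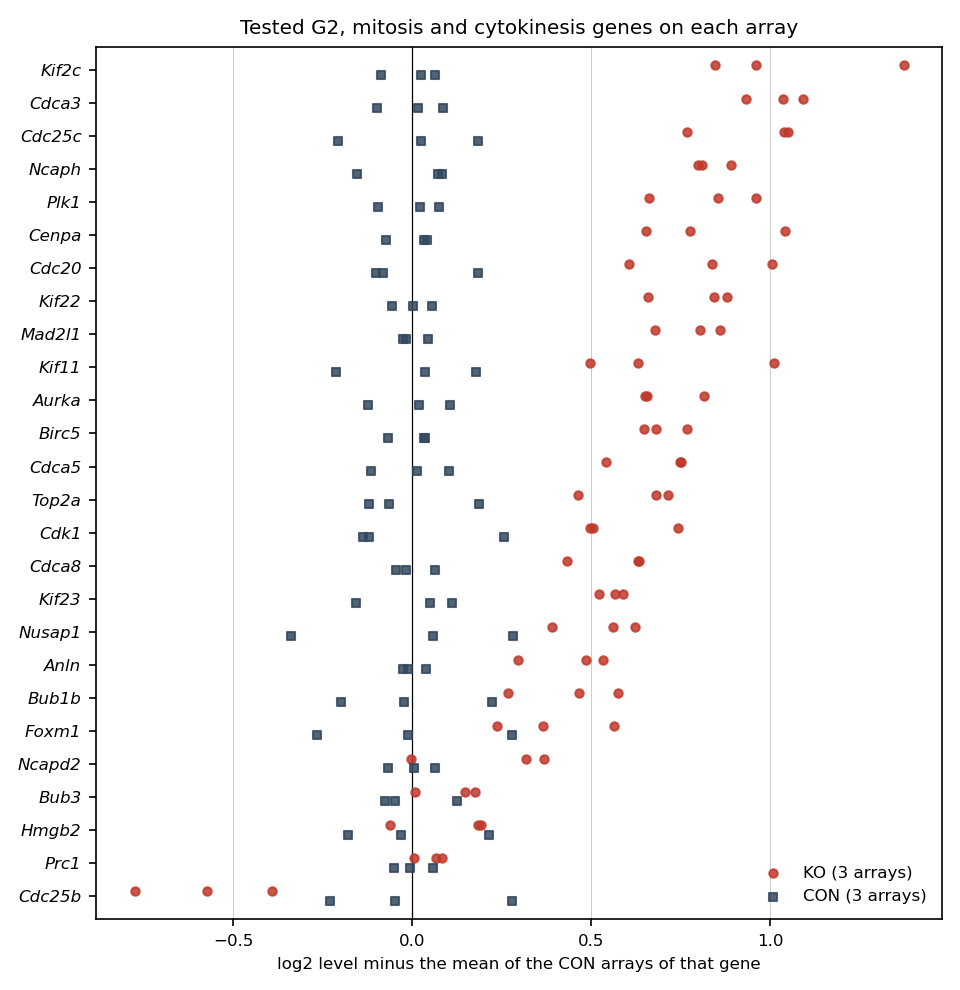
Each of the 26 tested genes on each array, as its log2 level minus the mean of the 3 CON arrays of that gene (x axis), with KO arrays as circles and CON arrays as squares. The KO arrays lie to the right of all CON arrays for 20 genes, overlap them for 5 and lie to the left for Cdc25b.

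Promoters of 4 members are shown because their genes span the range of changes: Kif2c, Cdca3 and Plk1 are the 3 with the largest rises whose promoter held one of the CHR or CCAAT motifs described next (the promoter of Cdc25c is not printed here), and Cdc25b is the only one that fell. Sequences are from RefSeq (GRCm38.p6), run from 250 bases before to 50 bases after the annotated start, and read 5′ to 3′ on the gene's strand. Capitals mark the letters TTTGAA or TTCGAA, the core of the cell cycle homology region (CHR), and CCAAT, the box that NF-Y binds, each on either strand. CHR elements are known as the docking site of the DREAM and MYBL2-FOXM1 complexes at late cell cycle genes. The windows are chr4:117178723-117179022 on the minus strand for Kif2c, chr6:124829926-124830225 on the plus strand for Cdca3, chr7:122159185-122159484 on the plus strand for Plk1 and chr2:131186698-131186997 on the plus strand for Cdc25b.
Kif2c: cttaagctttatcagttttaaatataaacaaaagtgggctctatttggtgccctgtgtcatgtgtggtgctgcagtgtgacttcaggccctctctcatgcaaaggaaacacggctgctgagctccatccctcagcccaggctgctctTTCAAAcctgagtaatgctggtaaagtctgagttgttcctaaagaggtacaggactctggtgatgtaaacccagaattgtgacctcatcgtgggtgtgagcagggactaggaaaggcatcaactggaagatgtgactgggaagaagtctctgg
Cdca3: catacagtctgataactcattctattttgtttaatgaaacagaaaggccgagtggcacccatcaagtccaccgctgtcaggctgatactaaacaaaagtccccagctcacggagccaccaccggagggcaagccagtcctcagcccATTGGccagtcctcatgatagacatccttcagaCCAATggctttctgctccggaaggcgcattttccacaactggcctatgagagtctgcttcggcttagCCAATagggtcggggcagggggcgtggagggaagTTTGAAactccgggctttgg
Plk1: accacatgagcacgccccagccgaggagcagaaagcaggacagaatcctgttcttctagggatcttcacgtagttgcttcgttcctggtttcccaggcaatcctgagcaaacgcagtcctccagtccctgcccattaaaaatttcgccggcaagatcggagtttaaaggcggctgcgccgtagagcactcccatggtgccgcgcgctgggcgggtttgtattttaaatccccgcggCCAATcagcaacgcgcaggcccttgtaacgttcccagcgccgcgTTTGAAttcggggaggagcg
Cdc25b: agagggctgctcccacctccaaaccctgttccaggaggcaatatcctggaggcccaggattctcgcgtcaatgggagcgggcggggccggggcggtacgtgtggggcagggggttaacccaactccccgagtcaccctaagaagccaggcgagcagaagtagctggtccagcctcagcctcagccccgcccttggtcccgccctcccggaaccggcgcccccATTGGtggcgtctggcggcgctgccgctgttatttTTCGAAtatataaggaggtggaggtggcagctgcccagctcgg
In Cdca3 and in Plk1 the letters TTTGAA begin 30 bases after the start, with CCAAT beginning 4 bases before it in Cdca3 and 14 bases before it in Plk1. Kif2c holds 1 CHR match on the opposite strand and no CCAAT. Cdc25b, which fell, holds a CHR match (TTCGAA) 7 bases after the start and 1 CCAAT on the opposite strand.

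The regulators of entry into mitosis moved in different directions. Cdc25c, a phosphatase that removes the inhibitory phosphates from CDK1, read 6.75, 6.76 and 6.48 on the KO arrays and 5.50, 5.89 and 5.73 on the CON arrays. No KO array came near the CON range, and the change was 0.95 ± 0.13 (1.94-fold, adjusted p = 0.00114). Its relative Cdc25b, which acts on CDK1 at the centrosome, gave the opposite picture, with 6.82, 6.64 and 6.44 in KO and 6.98, 7.16 and 7.49 in CON. All KO arrays were below all CON arrays, although KO replicate 1 and CON replicate 1 were close, and the change was -0.58 ± 0.15 (1.50-fold lower, adjusted p = 0.0236). This call was lost without KO replicate 2, KO replicate 3 or CON replicate 3 (adjusted p 0.0631, 0.0820 and 0.0624). Cdk1 itself read 7.93, 7.92 and 8.17 in KO and 7.29, 7.68 and 7.31 in CON. Its rise was 0.58 ± 0.14 (1.50-fold, adjusted p = 0.0134), with CON replicate 2 closest to the KO arrays, and without KO replicate 3 the adjusted p was 0.0510. Foxm1 encodes the transcription factor that activates many late cell cycle genes. It read 6.98, 7.31 and 7.11 in KO and 6.73, 7.02 and 6.47 in CON, so that KO replicate 1 fell just inside the CON range. The change, 0.39 with a 95% interval of 0.04 to 0.74, missed the threshold (adjusted p = 0.0934). Without CON replicate 2 it was 0.53 with an adjusted p of 0.0306.

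The mitotic kinases and the tested passenger proteins rose, 4 of 4. Plk1, the kinase of centrosome maturation and mitotic exit, read 8.77, 8.47 and 8.66 in KO and 7.83, 7.71 and 7.88 in CON. The distance between the lowest KO and the highest CON array, 0.59, was larger than the range within either genotype, and the change was 0.83 ± 0.11 (1.77-fold, adjusted p = 0.000935). Aurka, the Aurora kinase of the spindle poles, gave 7.995, 7.83 and 7.84 in KO and 7.28, 7.20 and 7.06 in CON (change 0.71 ± 0.10, adjusted p = 0.00156). Birc5 (survivin) and Cdca8 (borealin) belong to the chromosomal passenger complex, which corrects faulty attachments and guides cytokinesis. Birc5 read 8.94, 9.03 and 8.91 in KO and 8.19, 8.29 and 8.29 in CON, with a range of 0.12 within KO and 0.10 within CON and a change of 0.70 ± 0.09 (adjusted p = 0.000885). Cdca8 read 7.67, 7.87 and 7.87 in KO and 7.19, 7.30 and 7.22 in CON, and rose by 0.57 ± 0.10 (adjusted p = 0.00382). Neither gene's genotypes overlapped.

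Of the spindle checkpoint, 2 of 3 tested genes rose. Mad2l1 encodes MAD2, which binds CDC20 while kinetochores are unattached. It read 8.38, 8.51 and 8.57 in KO and 7.68, 7.75 and 7.69 in CON, and the 3 CON arrays lay within 0.07 of each other (change 0.78 ± 0.09, adjusted p = 0.000578). Bub1b, the BUBR1 subunit of the same inhibitory complex, gave 6.66, 6.77 and 6.46 in KO and 5.99, 6.42 and 6.17 in CON. The lowest KO array was only 0.04 above the highest CON array, and the change of 0.44 ± 0.14 passed narrowly (adjusted p = 0.0428). Without KO replicate 1, KO replicate 2, CON replicate 1 or CON replicate 3 its adjusted p lay between 0.0976 and 0.138. Bub3, which carries BUB1 and BUBR1 to kinetochores, read 7.56, 7.53 and 7.39 in KO and 7.51, 7.34 and 7.31 in CON, overlapping, with a change of 0.11 (95% interval -0.12 to 0.34, adjusted p = 0.471).

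Both tested genes of the ubiquitin machinery rose. Cdca3, an adaptor for the degradation of the mitotic inhibitor WEE1, read 9.66, 9.82 and 9.76 in KO and 8.81, 8.63 and 8.74 in CON. Its distance between the genotypes, 0.85, exceeded the ranges of 0.16 within KO and 0.18 within CON, and the change was 1.02 ± 0.10 (2.03-fold, adjusted p = 0.000175, the smallest among the members). Cdc20, the activator of the anaphase-promoting complex, read 9.45, 9.21 and 9.62 in KO and 8.79, 8.51 and 8.53 in CON (change 0.82 ± 0.13, adjusted p = 0.00261).

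All 4 tested kinesins rose. Kif2c, which takes apart microtubules at centromeres, had the largest change of the tested members on this scale, with 8.15, 7.62 and 7.74 in KO and 6.69, 6.80 and 6.84 in CON (change 1.06 ± 0.14, 2.09-fold, adjusted p = 0.00095). KO replicate 1 stood highest, and the other KO arrays were still clear of the CON arrays. Kif22, the chromokinesin KID, gave 9.02, 8.80 and 8.98 in KO and 8.20, 8.08 and 8.14 in CON (change 0.79 ± 0.10, adjusted p = 0.000713). Kif11, the motor that pushes spindle poles apart, gave 6.10, 6.23 and 6.61 in KO and 5.64, 5.78 and 5.39 in CON (change 0.71 ± 0.16, adjusted p = 0.0108). Its arrays ranged over 0.51 within KO and 0.39 within CON, without overlap between genotypes. Kif23, the motor of the centralspindlin complex at the midzone, gave 8.15, 8.17 and 8.10 in KO and 7.63, 7.42 and 7.69 in CON (change 0.56 ± 0.10, adjusted p = 0.00486).

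At centromeres, Cenpa, the histone variant that marks them, read 11.24, 11.37 and 11.63 in KO and 10.63, 10.52 and 10.62 in CON (change 0.82 ± 0.12, 1.77-fold, adjusted p = 0.00143). The genotypes were 0.61 apart at their closest arrays. Among microtubule proteins of the spindle, Nusap1, which crosslinks microtubules near chromatin, read 8.04, 8.27 and 8.21 in KO and 7.93, 7.31 and 7.70 in CON. CON replicate 1 came within 0.11 of the lowest KO array, and the change of 0.52 ± 0.16 (adjusted p = 0.0391) no longer passed when any 1 array other than CON replicate 1 was left out (adjusted p 0.0582 to 0.115). Prc1, which bundles microtubules at the midzone, read 10.75, 10.83 and 10.81 in KO and 10.80, 10.74 and 10.69 in CON. These arrays overlapped, with a change of 0.05 (95% interval -0.15 to 0.26, adjusted p = 0.718). Anln (anillin), the scaffold of the contractile ring, gave 10.57, 10.76 and 10.81 in KO and 10.26, 10.25 and 10.31 in CON, a rise of 0.44 ± 0.10 (adjusted p = 0.0124) with no overlap. Without KO replicate 2 its adjusted p was 0.0503.

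Of the condensin and cohesin genes, 2 of 3 tested rose. Ncaph, the kleisin subunit that closes the condensin I ring, read 7.77, 7.68 and 7.69 in KO and 6.73, 6.96 and 6.95 in CON (change 0.83 ± 0.10, 1.78-fold, adjusted p = 0.000631). Ncapd2, another condensin I subunit, read 7.03, 7.35 and 7.40 in KO and 6.96, 7.09 and 7.03 in CON, with KO replicate 1 inside the CON range and a change of 0.23 (95% interval -0.05 to 0.50, adjusted p = 0.201). The difference between these subunits was not tested. Cdca5 (sororin), which protects cohesin until anaphase, read 6.32, 6.32 and 6.11 in KO and 5.58, 5.45 and 5.67 in CON (change 0.68 ± 0.11, adjusted p = 0.00224). Top2a, the topoisomerase that untangles sister chromatids, gave 8.88, 9.10 and 9.13 in KO and 8.29, 8.60 and 8.35 in CON (change 0.62 ± 0.12, adjusted p = 0.00614). In both of these genes all KO arrays were higher. Hmgb2, a chromatin protein of proliferating cells, gave 8.65, 8.64 and 8.39 in KO and 8.28, 8.67 and 8.43 in CON, fully interleaved (change 0.10, 95% interval -0.19 to 0.40, adjusted p = 0.599).

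**Figure D2:**
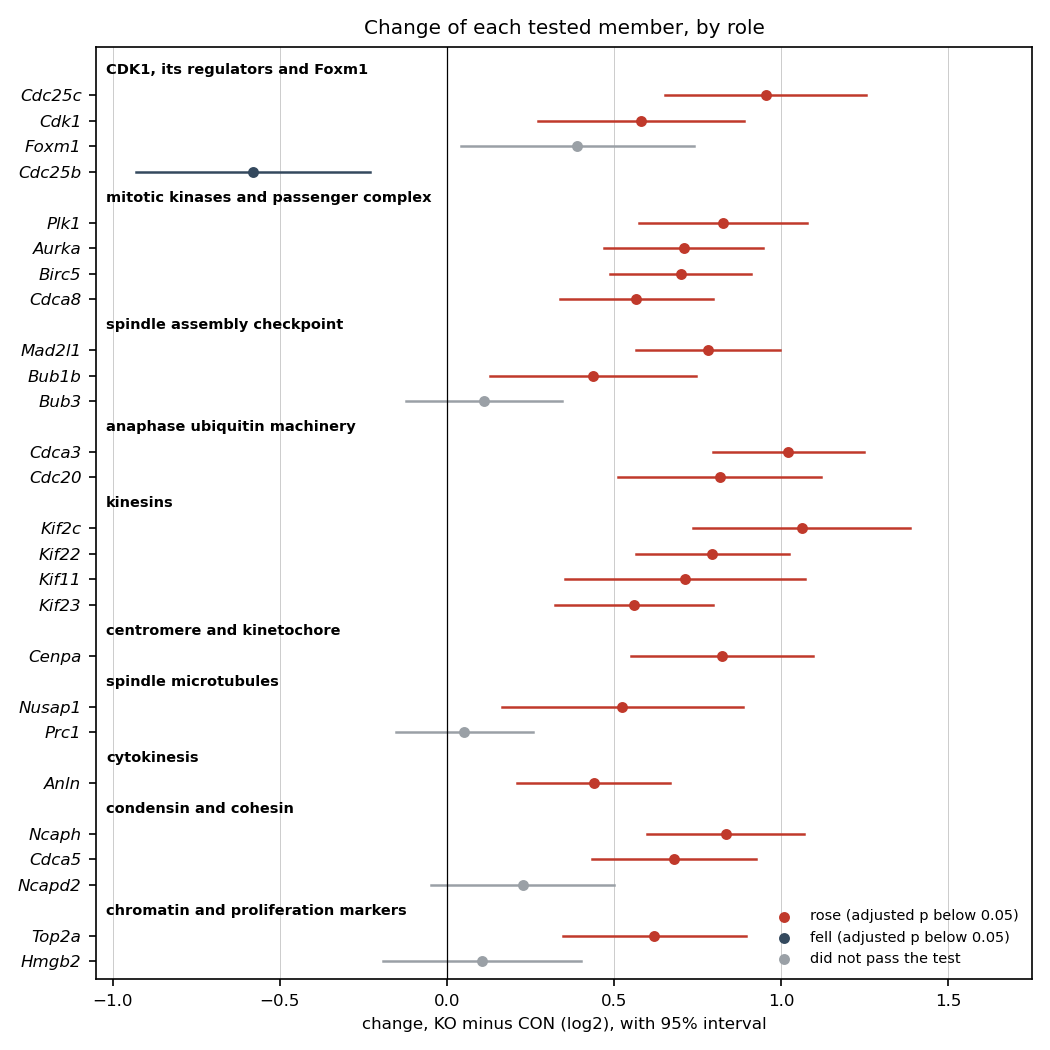
Change of each tested gene (x axis, KO minus CON, log2) with its 95% interval, grouped by role, coloured by whether it rose, fell or did not pass at an adjusted p below 0.05. Rises run between 0.44 and 1.06, Cdc25b lies at -0.58, and the intervals of Bub3, Prc1, Ncapd2 and Hmgb2 include 0.

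The 20 risen genes had changes between 0.44 and 1.06, a median of 0.71 (1.64-fold) and adjusted p between 0.000175 and 0.0428. The threshold limits the lower end of that span, and over all 26 tested members changes ran from -0.58 to 1.06. In 15 of the 20 the distance between the lowest KO and the highest CON array was larger than the range within either genotype. That makes 15 of the 26 tested members, against 9.41% of all tested genes. The pattern was spread over the arrays. The median level over the 26 genes was 8.09, 8.05 and 8.13 on the KO arrays and 7.57, 7.38 and 7.59 on the CON arrays, while the median over all tested genes lay between 7.90 and 7.91 on every array. Among the KO arrays, replicate 1 was the highest for 9 genes, replicate 2 for 8 and replicate 3 for 9. Among the CON arrays these counts were 8, 11 and 7. Members were about as variable as other genes, with a median SD of 0.13 in KO and 0.11 in CON, against 0.12 in KO and 0.13 in CON over all tested genes.

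Several members had more than 1 probe, which gives a second reading of the same RNA rather than a replicate. Of the 34 tested probes of members, 28 were higher in KO past the threshold, and the same number had all KO arrays above all CON arrays. The 5 genes with several tested probes were Cdc25c, Foxm1, Birc5, Cdc20 and Cdca3, and only the probes of Foxm1 differed in call. Its second probe read 6.56, 6.91 and 6.73 in KO and 6.17, 6.31 and 6.42 in CON and passed (change 0.43 ± 0.12, adjusted p = 0.0285), close in size to the first. The second probe of Cdca3 changed by 1.03 ± 0.12, and that of Cdc25c, which 2 of 3 CON arrays detected, by 0.78 ± 0.14. For Birc5 the other probes gave 0.84 ± 0.10 and 0.64 ± 0.10. For Cdc20 they gave 0.77 ± 0.11, 0.66 ± 0.14 and 0.40 ± 0.12, all 3 past the threshold. Cdk1, Cdc25c, Nusap1, Anln and Ncapd2 also carried probes below the detection filter, 8 of which no array detected.

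**Figure D3:**
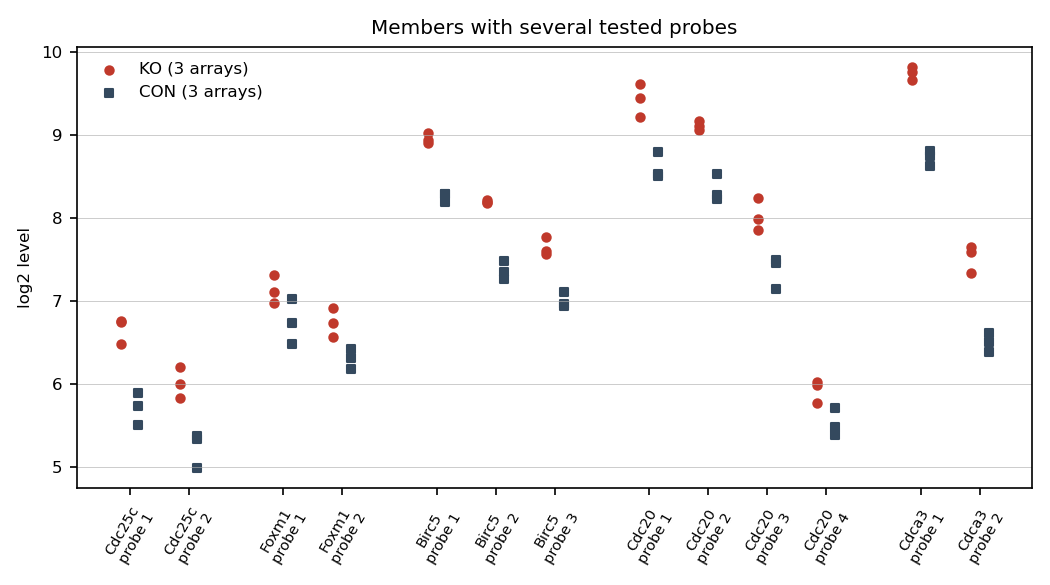
Log2 level (y axis) of every tested probe of the 5 genes with several tested probes, with the 3 KO arrays as circles and the 3 CON arrays as squares. KO lies above CON without overlap for each probe except probe 1 of Foxm1, where KO replicate 1 (6.98) is below CON replicate 2 (7.02).

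The remaining 21 genes gave no test. Probes of 13 were detected on no array: Ccna2 and Ccnb2 (cyclins of CDK1), Cks1b and Cks2 (small CDK-binding proteins), the kinases Nek2, Bub1 and Ttk, the ubiquitin-conjugating enzyme Ube2c, the separase inhibitor Pttg1 (securin), the motors Kif20a and Cenpe, the RhoA activator Ect2 and the condensin core subunit Smc2. Stmn1, a microtubule-destabilizing protein, and Tpx2, the activator of Aurora A, were each detected on KO replicate 2 alone. Tpx2 gave raw intensities of 112, 130.4 and 118.8 in KO and 116.2, 111.8 and 106.5 in CON, and Stmn1 99.4, 128.6 and 122.6 in KO and 117, 109.9 and 108.3 in CON, so the raw values of both overlapped between genotypes. After normalization Stmn1 still overlapped, while Tpx2 read 5.04, 5.43 and 4.95 in KO and 4.64, 4.71 and 4.62 in CON, with all KO arrays above all CON arrays. These values lie near the array's background, and neither gene was tested. No probe of the array carried the symbols Ccnb1, Aurkb, Cenpf, Racgap1, Smc4 or Mki67. Cyclin B1, the Aurora kinase of the passenger complex and the Ki-67 antigen were therefore not read here. The array also held 1719 probes without a symbol, which were not searched for these genes.

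Other genes of the same phases held smaller shares of rises. Lists of them were set by function, with no member repeated. Over 67 tested genes of these lists (111 on the array), 19 rose and 4 fell, with a median change of 0.20. That is 28.4% risen, against 14.1% risen and 14.7% fallen over all tested genes. The spindle, centrosome and cytokinesis genes came closest to the members, with 9 of 16 risen, 0 fallen and a median of 0.35. Among them Kif18b, a motor that shortens astral microtubules, was 1.67-fold higher (adjusted p = 0.000502), Spag5 (astrin) 1.93-fold (adjusted p = 0.000507), the mitotic kinase Pbk 1.72-fold (adjusted p = 0.000721) and the motor Kif15 1.85-fold (adjusted p = 0.0015). Of the other kinetochore and centromere genes 7 of 20 rose and 0 fell, with a median of 0.34. In that list Cenpm rose 1.64-fold and Cenpk at least 1.44-fold (each adjusted p = 0.00165), a bound because no CON array detected Cenpk. Sgo1 (shugoshin), which guards centromeric cohesion, rose 1.50-fold (adjusted p = 0.00169) and Cenpi 1.43-fold (adjusted p = 0.00659). With median scaling of the arrays in place of quantile normalization, 5 of the spindle list and 3 of the kinetochore list rose. In the main fit the mean was higher in KO for 16 of the 16 spindle genes and 19 of the 20 kinetochore genes. The same held for 25 of the 26 members and 49.8% of all tested genes. The median level was 6.92 in the spindle list and 6.41 in the kinetochore list, against 7.79 for the members.

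Regulators of mitotic entry and exit outside the member list gave 2 risen (10%) and 4 fallen of 20, with a median of 0.01. Over all tested genes 14.1% rose and 14.7% fell, which is the background for this and the following lists. Mybl2, the B-MYB factor that works with FOXM1, was 1.66-fold higher (adjusted p = 0.00399). Cdc25a, the third CDC25 phosphatase, was 1.50-fold lower (adjusted p = 0.00296), like Cdc25b and unlike Cdc25c. Cdc14b, a phosphatase of the DNA damage checkpoint in G2, was 1.79-fold lower (adjusted p = 0.00261, detected on 2 of 3 KO arrays), and Anapc16, a subunit of the anaphase-promoting complex, 1.35-fold lower (adjusted p = 0.0107). Other condensin and cohesin genes gave 1 risen and 0 fallen of 11 with a median of -0.11, the risen one being Esco2, an acetyltransferase of cohesin in S phase (1.60-fold, adjusted p = 0.00882). For earlier phases, of 37 tested genes of DNA replication and S phase 7 rose (18.9%) and 0 fell (median 0.17). The mean was higher in KO for 31 of the 37, against 49.8% of all tested genes. All KO arrays lay above all CON arrays for 13 of them, against 22.7% of all tested genes. The smallest adjusted p values there were those of Cdc45 (1.60-fold, adjusted p = 0.00218) and Mcm10 (2.16-fold, adjusted p = 0.00232), both factors of replication origins, while E2f2, chosen after its value was seen, had the largest change of the list (2.32-fold, adjusted p = 0.00382). The histone chaperone subunit Chaf1b was 1.50-fold higher (adjusted p = 0.00256) and Tyms, thymidylate synthase, 1.58-fold (adjusted p = 0.00341). In a list of D cyclins, G1 kinases, CDK inhibitors and Rb1, 0 of 11 tested genes rose and 4 fell (median -0.23). Ccnd1, cyclin D1, was 1.51-fold lower (adjusted p = 0.00359), Cdkn1c (p57) 1.63-fold (adjusted p = 0.004), Cdk2 1.37-fold (adjusted p = 0.0117) and Cdkn1b (p27) 1.41-fold (adjusted p = 0.0394).

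**Figure D4:**
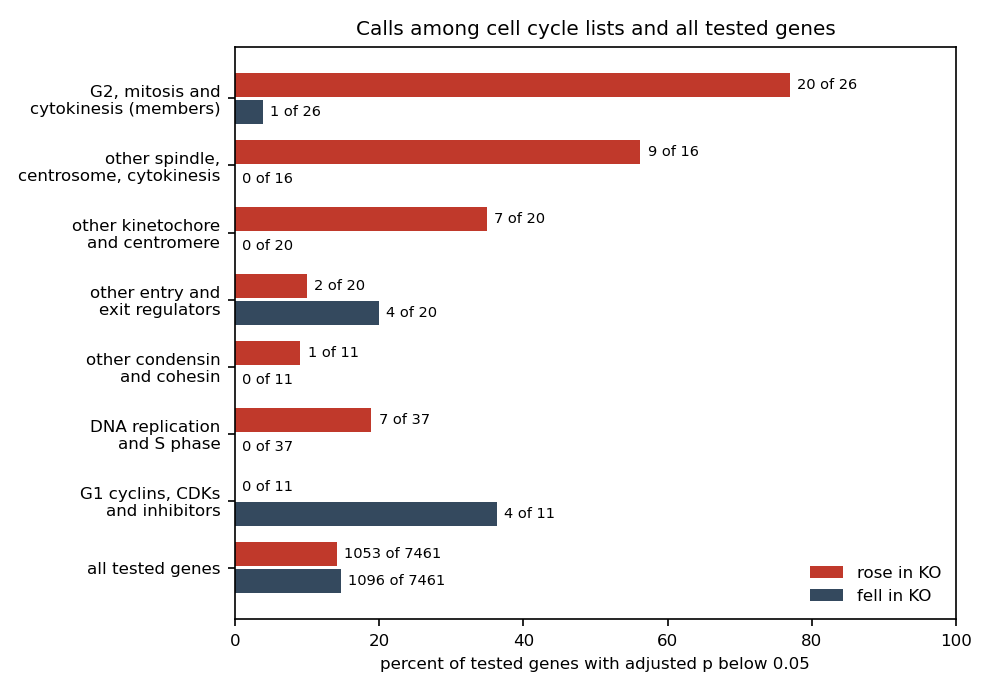
Share of tested genes in each cell cycle list that rose or fell in KO at an adjusted p below 0.05 (x axis, percent), with the counts beside the bars and all 7461 tested genes at the bottom. The members (20 of 26 risen) have the largest share of rises, and the list of D cyclins, G1 kinases, CDK inhibitors and Rb1 holds falls only (4 of 11).

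Promoter letters were read for 39 of the 47 members. A CHR match was present in 30 of the 39 (76.9%), in 26 of 54 promoters of the other tested G2 and M phase genes (48.1%) and in 837 of 6104 promoters of all tested genes (13.7%). CCAAT was present in 31 members (79.5%), against 39.1% of all tested genes, and both motifs in 27 members (69.2%), against 5.88% of all tested genes. The E2F letters searched (TTCCCGC or TTGGCGC, either strand) were in 7 members (17.9%), against 12.2% of all tested genes. The 39 members include some that were not tested. Over all 27025 genes with a promoter, tested or not, the shares were 19.4% for CHR, 37.9% for CCAAT, 7.7% for both and 6.93% for E2F. The CHR matches of members sat near the start site: 29 of 44 (65.9%) lay between 50 bases before and 50 bases after it, against 22.1% of the matches of all tested genes. CHR letters were in 15 of 19 risen members (78.9%) and also in Bub3, Prc1, Hmgb2 and Ncapd2, which did not pass, and in Cdc25b, which fell. Birc5, Mad2l1, Ncaph and Nusap1 rose with no CHR match in the window. With the variants CTTGAA and CTCGAA counted too, Birc5 and Mad2l1 each held 1 match. A match was then present in 33 of the 39 members and 17 of the 19 risen members, against 26.8% of all tested genes. The next shares are over tested genes outside the members and all the cell cycle lists above, the S phase and D cyclin lists included. Of these, 61 of 323 with both motifs rose (18.9%) and 31 fell (9.6%), against 12.7% risen and 15.7% fallen of 3204 genes with neither. With CHR alone 13.2% rose and 13.2% fell (463 genes), and with CCAAT alone 13.8% rose and 13.9% fell (1998 genes). A match is a run of letters and not a measured binding site.

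Markers of the cell types that the epidermal preparation could hold were read on the same arrays. Their counts stand beside 14.1% risen and 14.7% fallen over all tested genes. Arrays detected between 9866 and 10636 probes each, and correlated at 0.989 to 0.993 within genotypes and 0.965 to 0.968 between them (r over 10386 tested probes). Of the basal keratinocyte markers, 0 of 10 tested rose and 6 fell, and the log2 of their summed level was 16.12 to 16.13 in KO and 16.51 to 16.59 in CON. Krt14, the brightest of the 10, read 14.73 on all 6 arrays after quantile normalization, with raw intensities of 25188.5 to 30622.1. Its level on this scale could not show a change, and it weighs most in the sum. Krt15 was 2.58-fold lower, Krt5 1.61-fold, Lamb3 1.55-fold and Itgb4 1.53-fold (adjusted p at most 0.00255). Markers of T cells rose in 2 of 5 tested genes (10 in the list, 7 on the array), with a summed log2 level of 11.23 to 11.47 in KO and 10.99 to 11.07 in CON: Cd3d was 1.45-fold higher (adjusted p = 0.004) and Cd3e 1.28-fold (adjusted p = 0.0318), while Ptprc and Cd2 did not reach the detection filter. Markers of melanocytes (3 of 4 fell, sums of 8.41 to 8.49 in KO and 9.42 to 9.52 in CON), of Langerhans cells (3 of 4 fell, 11.48 to 11.62 in KO and 12.18 to 12.38 in CON) and of fibroblasts (3 of 4 fell, 9.20 to 9.26 in KO and 9.65 to 9.79 in CON) were lower. On the array but below the detection filter were 2 more melanocyte, 4 more Langerhans cell and 8 more fibroblast markers. Suprabasal markers gave 3 risen and 1 fallen of 11 (15.79 to 15.82 in KO, 15.76 to 15.80 in CON). Tgm1 was 2.69-fold higher (adjusted p = 7.34e-05), Ivl 1.49-fold (adjusted p = 0.00389) and Tgm3 at least 1.13-fold (adjusted p = 0.0064). Flg2 was 1.40-fold lower (adjusted p = 0.00963). Bright genes such as Krt10 (mean 14.49 in KO and 14.52 in CON) weigh most in the suprabasal sum. Hair matrix and inner root sheath markers gave 0 risen and 1 fallen of 6 (10.09 to 10.22 in KO, 10.21 to 10.44 in CON), and endothelial markers 0 of 2 called (6.19 to 6.63 in KO, 6.04 to 6.48 in CON). The part of these cell types in the changes of the mitotic genes was not tested.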

How the data were processed

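RNA of epidermal keratinocytes from Med1 KO and CON mice was hybridized to Illumina MouseRef-8 v2.0 beadchips (3 arrays each). The authors deposited probe intensity values, linear and neither background-subtracted nor normalized (GenomeStudio 2011.1 per the submitters' processing notes), with a detection p-value per probe and array, and a second table of intensity values they normalized in GenomeStudio. The first table was used, the second as an alternative. Values were processed with the neqc method of limma 3.58.1 (R 4.3.3): background inferred from detection p-values, offset 16, quantile normalization, log2. Offset and background pull changes of dim probes towards 0. Of 25697 probes, 10386 had a detection p below 0.01 on at least 3 of 6 arrays and were tested (7461 named genes; 588 tested probes were unnamed here). The number of arrays limits the precision.

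The comparison of KO with CON used lmFit and eBayes of limma, two-sided and without covariates, with Benjamini-Hochberg adjustment over all tested probes. The script was tested on simulated data. Symbols came from the platform annotation (23962 of 23978 named probes matched RefSeq, 0 symbols changed). A gene's value is that of its brightest tested probe, and "at least" marks a bound where no array of a genotype detected the probe. Intervals are at 95%.

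Members and lists were chosen with earlier results of these data known. Every member is accounted for, and of other lists at most 4 genes with the smallest adjusted p are named. Promoter sequences come from the RefSeq table of GRCm38.p6 (27025 genes, first listed start), and no build is stated for the array. The main fit did not pair arrays by replicate number. Alternatives covered normalization, background, offset, filter, moderation, array weights, replicate block, probe choice, the methods' t-test and leaving out each array.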

Additional observations from a re-analysis of the deposited data

How the results depend on the processing

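Under median scaling of the arrays in place of quantile normalization, 17 of 26 members rose and 1 fell (all tested genes: 610 rose and 678 fell), and the calls of Anln, Bub1b and Nusap1 were lost. The other G2 and M phase lists then had 10 risen and 2 fallen genes, against 19 and 4 (spindle list 5 risen, against 9; kinetochore list 3, against 7; entry and exit regulators 1 risen and 2 fallen, against 2 and 4), and the D cyclin and inhibitor list 2 fallen, against 4. The T cell list then had 1 risen gene, against 2, as it did in the methods' t-test and with the block. Under median scaling the fibroblast list had 1 fallen gene, against 3, and the suprabasal list 0, against 1. The median change of 0.65 was smaller on scales that keep more background: 0.41 on the authors' normalized values, 0.41 without background correction, 0.41 in the methods' t-test on the authors' values and 0.49 with offset 50. It was 0.44 without a filter, where all 41 members with a probe enter. Sizes and ranks of single members moved as well. On the authors' values Cdca3 changed by 0.89, Kif2c by 0.69 and Cdc25c by 0.43. With offset 50 Cdca3 changed by 0.97 and Kif2c by 0.87. Cdca3 thus stood above Kif2c on both scales, and both genes were short of 2-fold. The fall of Cdc25b was not called without a filter (0 fell, 18 rose, with 1 and 22 at an unadjusted p below 0.05) or in the methods' t-test with Benjamini-Hochberg adjustment (0 fell, 16 rose, with 1 and 20 unadjusted). Leaving out 1 array at a time gave 17 to 20 risen and 0 to 1 fallen members, a median of 0.57 to 0.71, and 767 to 946 risen and 790 to 957 fallen genes in all. With the replicate number as a block, 19 members rose and 1 fell, Nusap1 being lost (adjusted p = 0.0580). Deviations of same-numbered arrays correlated at -0.03, 0.07 and -0.05, and those of differently numbered arrays at -0.07 to 0.11. With 3 arrays per genotype these values cannot decide whether same-numbered arrays were handled together, which is not stated. Of 494 pairs of a member and an alternative, 465 kept direction and side of the threshold, 27 lost the call, 2 gained it (Foxm1) and 0 reversed.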
